A study of Mus musculus with 6 samples.

Results

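The cytosolic ribosomal protein genes are the genes whose proteins build the ribosomes of the cytosol. They were taken by name as the protein-coding genes called Rpl, Rps or Rplp with a number (Rps6k kinase genes left out), which gave 82 genes of the 25904 measured. The genes were read in mouse F9 teratocarcinoma cells, an embryonal carcinoma line that differentiates towards primitive endoderm when given retinoic acid (RA). RNA sequencing had been made of 6 libraries, 1 for each group: shCtbp2 with RA, shCtbp2 untreated (UT), shRxr with RA, shRxr untreated, shGFP with RA and shGFP untreated. RA was all-trans RA at 1 µM for 48 hours, and the serum of all 6 cultures had been stripped with charcoal, a step that takes out retinoids. Ctbp2 is a transcriptional corepressor, retinoid X receptors (Rxr) are the partners of the retinoic acid receptors, and a hairpin to GFP served as the control. The labels do not say whether a line was a clone or a pool, which Rxr gene was targeted, or that any culture was repeated.

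Each cytosolic ribosome has a small subunit, which reads the mRNA, and a large subunit, which joins the amino acids, with a flexible P stalk on the large subunit that recruits the translation factors. The mRNAs of these proteins are among the most abundant of growing cells, and many begin with a run of pyrimidines (a 5′ TOP tract) through which the mTOR pathway controls their translation. Most of the genes have many processed pseudogenes, copies of the spliced mRNA elsewhere in the genome, and a few have working paralogs, some of them known for expression in the testis. Translation was not measured here, so all values below are amounts of mRNA. Less RNA per cell and fewer cells with that RNA cannot be told apart in such libraries.

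Depth was 9955808 to 13322506 reads counted in genes per library. Levels are given as normalised reads, reads per 10000000 counted in genes. Ctbp2 stood at 55.4 and 210 normalised reads in shCtbp2 with RA and untreated, against 701 and 1811 in shGFP. Rxra stood at 82.4 and 73.7 in shRxr with RA and untreated, against 805 and 520 in shGFP. All 9 embryonal carcinoma markers and all 9 endoderm markers were measured, with summed levels of 22906 to 53954 and 4110 to 21635. The endoderm sums were 14702, 10140 and 21635 in shCtbp2, shRxr and shGFP with RA, against 5716, 4110 and 4709 untreated. Fibroblast markers (7 of 8 in the table, Postn at 0) summed to 393 to 519 with RA, against 131 to 172 untreated. The rise came mainly from Pdgfrb, higher with RA in each line (465 and 28.2 in shGFP with RA and untreated). Thy1 went the other way in each line (21.8 and 82.96 in shGFP), so the fibroblast list did not move as a set. Blood and immune markers (6 of 8 in the table) summed to 75.3 to 139 over all libraries. The part of other cell types in the results was not tested.

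Stretches around the transcription start are shown for Rpl4, the steadiest gene, for Rpl18 and Rplp2, and for the paralogs Rpl10l and Rpl39l beside the genes they resemble. As deposited, Rpl18 and Rplp2 were both higher with RA in shCtbp2 cells. After the GC content and length correction described below, their log2 changes there were -0.29 and -0.21. The members with the lowest RA changes are not among those shown. Each holds 30 bases before the start and 20 from it, 5′ to 3′ on the transcript's strand, from RefSeq on GRCm38.p6, with the letters CTTTC in capitals where they occur.
Rpl4 (chr9:64173357-64173406, plus strand): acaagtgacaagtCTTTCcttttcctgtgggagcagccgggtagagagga
Rpl18 (chr7:45718041-45718090, plus strand): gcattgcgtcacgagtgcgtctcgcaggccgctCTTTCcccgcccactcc
Rplp2 (chr7:141447621-141447670, plus strand): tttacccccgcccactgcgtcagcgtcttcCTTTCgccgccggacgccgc
Rpl10 (chrX:74270786-74270835, plus strand): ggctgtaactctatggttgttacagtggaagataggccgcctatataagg
Rpl10l (chr12:66284382-66284431, minus strand): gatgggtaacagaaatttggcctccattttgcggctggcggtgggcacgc
Rpl39 (chrX:37085203-37085252, minus strand): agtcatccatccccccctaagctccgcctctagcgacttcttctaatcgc
Rpl39l (chr16:10170198-10170247, plus strand): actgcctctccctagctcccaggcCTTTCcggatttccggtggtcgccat

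RefSeq windows (250 bases before the start to 50 after it) were found for 60 of the 82 members. CTTTC, within 30 bases of the start on the transcript's strand, was present in 21 of these 60 (35.0%), against 8.26% of 17491 protein-coding genes with a window. CCGGAAG, searched over the whole window on both strands, was present in 23 of 60 (38.3%), against 12.9% of those genes. These motifs were picked from 9 searched, after their shares were seen. CTTTCC (which holds CTTTC) and CTTTTC, in the same window, were in 20% and 10% of members against 3.25% and 2.19% of genes, and CTCTTTCC over the whole window on the transcript's strand in 13.3% against 1.82%. AAGATGGC was in 10% against 3.57% and CACGTG in 10% against 8.91%, over the whole window on both strands. CCGCCC in the 250 bases before the start was in 51.7% against 45.8%, and TATAAA in the 50 bases before the start in 1.67% against 4.69%, on both strands. These shares depend on the window searched, and no match says only that the letters are not in that window. Members with CTTTC had a median log2 change in RA of 0.52 in shCtbp2, -0.25 in shRxr and -0.07 in shGFP, and members without it 0.42, -0.28 and -0.08. For CTTTC the medians with and without the motif thus lay close together in each line. Members with CCGGAAG had medians of 0.51, -0.26 and -0.02, and members without it 0.34, -0.27 and -0.11. Whether a motif goes with the response was not tested.

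The 82 genes together took 4.29% and 3.20% of the reads in shCtbp2 with RA and untreated, 2.55% and 3.06% in shRxr with RA and untreated, and 2.89% and 2.98% in shGFP with RA and untreated. The RA-treated shCtbp2 library was the highest and the RA-treated shRxr library the lowest, while the 3 untreated libraries lay within 2.98% to 3.20%. The summed level in RA was 1.34 times that in untreated cells in shCtbp2 (95% counting interval 1.33 to 1.35), 0.833 times in shRxr (0.829 to 0.838) and 0.968 times in shGFP (0.964 to 0.972). RA-treated shCtbp2 cells had 1.49 times the summed level of RA-treated shGFP cells, and untreated shCtbp2 cells 1.07 times that of untreated shGFP cells. For shRxr the same ratios were 0.883 with RA and 1.03 untreated. These intervals are exact binomial intervals that cover counting error only, not the spread between cultures, which 1 library per group cannot give. In shGFP the median level over members was 1.05 times as high with RA as untreated, on the other side of 1 from the sum. The median log2 change of single members in shGFP was -0.07, with 53 of 79 lower. In shCtbp2 with RA and untreated, large subunit genes took 1.77% and 1.46% of reads, small subunit genes 2.11% and 1.498%, and P stalk genes 0.298% and 0.190%.

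**Figure D1:**
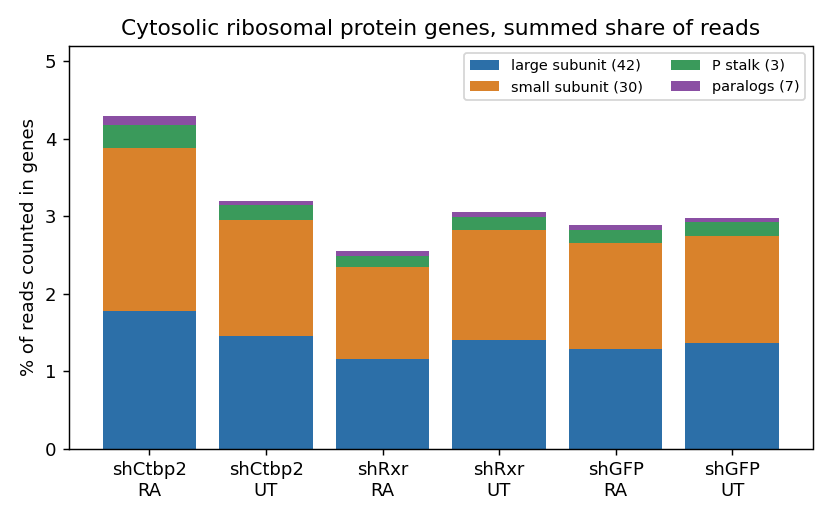
Share of reads counted in genes (y axis, %) taken by the cytosolic ribosomal protein genes in each of the 6 libraries (x axis), stacked by large subunit, small subunit, P stalk and paralogs, with the number of genes in brackets. The bar of RA-treated shCtbp2 cells reaches 4.29% and the bar of RA-treated shRxr cells 2.55%.

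Mean levels over the 6 libraries ran from 8.67 to 31895 normalised reads, with a median of 1612, and the 10 highest genes held 54.9% of the sum. Per kilobase of coding length, on the scale of normalised reads, high levels were 34339 for Rps20, 31933 for Rpl32, 31109 for Rpl23 and 29785 for Rpl8. The level per kilobase ranged from 9.09, for the muscle paralog Rpl3l, to 34339 over the 80 genes with a usable coding length, and Rpl23a, which is no paralog, had 20.8. Of 82 members, 47 had at least 50% of the 50-base stretches of their transcript in identical form in another annotated gene. These had a median of 2180 normalised reads per kilobase, and the 33 others with a usable coding length had 8524 (Spearman correlation of level with shared percent -0.50 over 80 genes, given as a description). Rps27, a small subunit protein, averaged 8.67 normalised reads with 98.6% of its stretches shared, and Rpl23a, a large subunit protein, 9.73 with 85.7% shared. The handling of reads that match several places is not given in the sources used here, so levels of such genes are uncertain and its part was not tested.

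When the RA and untreated libraries of all 3 lines were fitted in 1 model, no member passed the test. The limma model on line and treatment called 0 raised and 0 lowered by RA among the 79 members with a mean of at least 20 normalised reads, where 10.8% of all 12332 genes tested were called raised and 4.63% lowered (adjusted p under 0.05). At an unadjusted p under 0.05 there were 4 members, beside 3819 of the 12332 genes tested. Limma voom on the recovered reads called 1 member raised, Rpl10l, where it called 10.7% of all genes raised. The median log2 change of the members was 0.02, beside 0.07 for all genes tested. In this fit the lines stand in as replicates, and differences between lines in their RA response count as error. Rpl23a, Rps27 and Rpl3l, the muscle paralog of Rpl3, were under the minimum mean and were not tested.

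Within each line the members were then compared by size, without a test. In shCtbp2 cells 60 of 79 members were higher with RA (52.4% of all genes were), 19 were lower (47.6%) and the median log2 change was 0.35, beside 0.07 for all genes. At least 1.5-fold higher were 26 members, while 30.3% of all genes were, and at least 1.5-fold lower were 3 (Rpl5, Rpl15 and Rpl24), while 30.7% of all genes were. In shRxr cells 75 of 79 members were lower with RA (40.3% of all genes were), and 4 were higher (59.7%), with a median of -0.26 beside 0.09 for all genes, but the steps were small: Rpl10a, Rpl27, Rpl29 and Rpl36 were at least 1.5-fold lower (4 members, 4.32% of all genes) and Rpl10l higher (1 member, 13.7%). In shGFP cells 53 of 79 were lower with RA (42.4% of all genes) and 26 higher (57.6%), with a median of -0.07 beside 0.12 for all genes, and Rpl5, Rpl10a, Rpl24 and Rps13 were at least 1.5-fold lower (4 members, 14.8% of all genes), with 0 higher (24.7%). Of the 79, 34 were higher in RA in shCtbp2 and lower in both other lines (7.91% of all genes were), 18 were lower in all 3 lines (19.9% of all genes were) and 3, among them Rpl10l and Rps4y2, were higher in all 3 (33.3% of all genes were). After the GC content and transcript length correction described below, called the GC content correction from here on, the shCtbp2 median was -0.02. The direction in shCtbp2 thus did not hold, and Rps4y2 was then at -0.05 in shGFP. These comparisons have 1 library on each side and no replicate check.

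**Figure D2:**
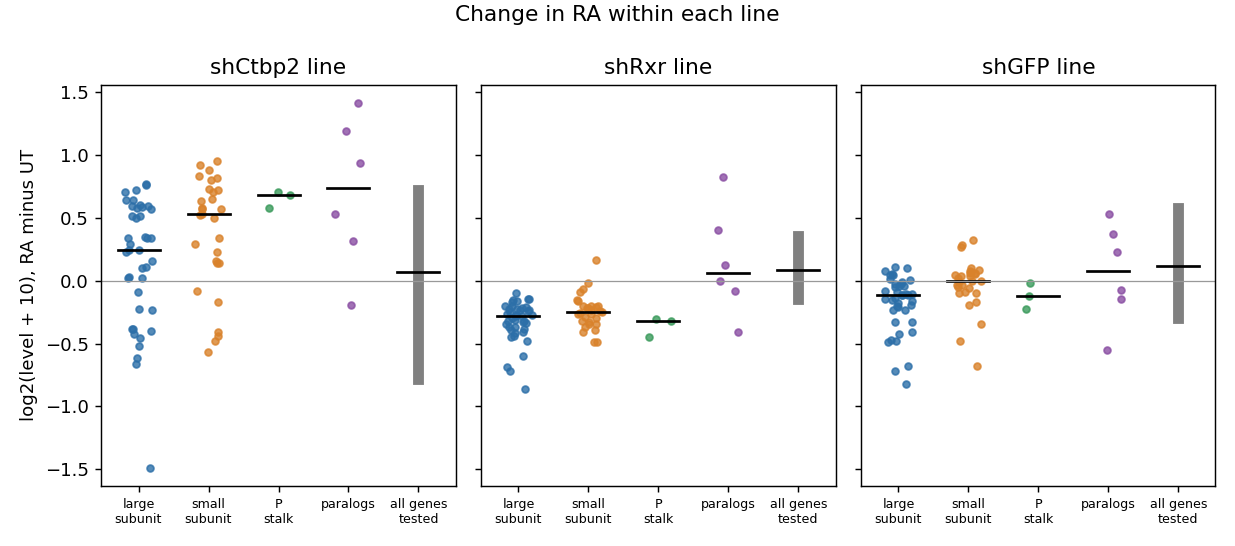
Log2(level + 10) with RA minus untreated (y axis) in the shCtbp2, shRxr and shGFP lines, 1 point for each of the 79 members by group (x axis), with black lines at medians. The grey bar is the middle range, from the 25th to the 75th percentile, of all 12332 genes tested. In shRxr the large subunit points lie below 0, and in shCtbp2 most small subunit points lie above it.

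Small subunit genes had a median log2 change in RA of 0.53 in shCtbp2 (23 of 29 higher), -0.25 in shRxr (1 of 29) and 0.00 in shGFP (15 of 29). Rps3, which lines the channel where mRNA enters, stood at 32049 and 19687 normalised reads in shCtbp2 with RA and untreated, 15758 and 18295 in shRxr, and 18006 and 18183 in shGFP. Rps3 was highest in the RA-treated shCtbp2 library, and its levels with RA and untreated overlapped over the 3 lines. The limma change of Rps19 in RA was 0.34 on the log2 scale (SE 0.27, adjusted p = 0.420). Rps27a, made as a fusion with ubiquitin, was lower with RA in each line and stood at 219 and 328 in shCtbp2, 221 and 313 in shRxr, and 217 and 307 in shGFP. All its RA values lay under all its untreated values, with a limma change of -0.51 (SE 0.26, adjusted p = 0.209).

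Large subunit genes had a median log2 change in RA of 0.24 in shCtbp2 (29 of 41 higher), -0.28 in shRxr (0 of 41) and -0.12 in shGFP (8 of 41). Rpl8, at the catalytic centre of the subunit, stood at 35387 and 22699 normalised reads in shCtbp2 with RA and untreated, 16425 and 21775 in shRxr, and 19488 and 22010 in shGFP. Its log2 change in RA in shCtbp2 was 0.64 as deposited and -0.31 after the GC content correction. Rpl4, which lines the exit tunnel for the new protein, was the steadiest member, with an SD of 0.08 (log2) over the 6 libraries. It stood at 32884 and 32428 in shCtbp2, 29637 and 34270 in shRxr, and 30506 and 31644 in shGFP, so its libraries differed little. Next in steadiness came Rpl7l1, Rpl30 and Rps26, with SDs of 0.11, 0.11 and 0.13.

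Rpl5, which with Rpl11 carries the 5S rRNA into the subunit and can bind the p53 regulator Mdm2, had the lowest RA change of the members. Rpl5 stood at 48.5 and 154 normalised reads in shCtbp2 with RA and untreated, 110 and 147 in shRxr, and 84.1 and 156 in shGFP. Its 3 RA levels were all below its 3 untreated levels. The limma change was -0.90 on the log2 scale (SE 0.30, adjusted p = 0.0618), short of the threshold, and over 19 alternatives the adjusted p ran from 0.0102 to 0.520. Rpl5 was called in 7 of these: with equal upper quartiles, median-of-ratios scaling, either GC content and length correction, and without the shRxr line or either of its libraries. With a line term a lone shRxr library adds nothing to the RA change, so those leave-outs are not separate checks. Rpl5 lies at 108329521 to 108338024 on chromosome 5 (mm9), and 93.8% of its stretches are shared with other genes, so its level is uncertain. Rpl11 stood at 143 and 140 in shCtbp2, 111 and 156 in shRxr, and 130 and 166 in shGFP, and its values with RA and untreated overlapped. Rpl10a was also lower in RA in each line, at 664 and 879 in shCtbp2, 567 and 861 in shRxr, and 536 and 866 in shGFP (limma -0.56, SE 0.26, adjusted p = 0.156). Rpl24 and Rpl17 had limma changes of -0.51 (SE 0.26, adjusted p = 0.207) and -0.43 (SE 0.28, adjusted p = 0.323).

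The 3 P stalk genes had like patterns over the libraries. Rplp0, the base of the stalk, stood at 10638 and 7133 normalised reads in shCtbp2 with RA and untreated, 4904 and 6692 in shRxr, and 5811 and 6788 in shGFP. Rplp1 stood at 12437 and 7621 in shCtbp2, 5624 and 7027 in shRxr, and 6485 and 7042 in shGFP. Rplp2 stood at 6756 and 4204 in shCtbp2, 3130 and 3861 in shRxr, and 3698 and 3744 in shGFP. All 3 were highest in the RA-treated shCtbp2 library and lowest in the RA-treated shRxr library. Their log2 changes in RA were 0.58 to 0.71 in shCtbp2, -0.45 to -0.30 in shRxr and -0.22 to -0.02 in shGFP. After the GC content correction the changes in shCtbp2 were 0.06 for Rplp0, -0.27 for Rplp1 and -0.21 for Rplp2, so the direction held for Rplp0 alone.

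**Figure D3:**
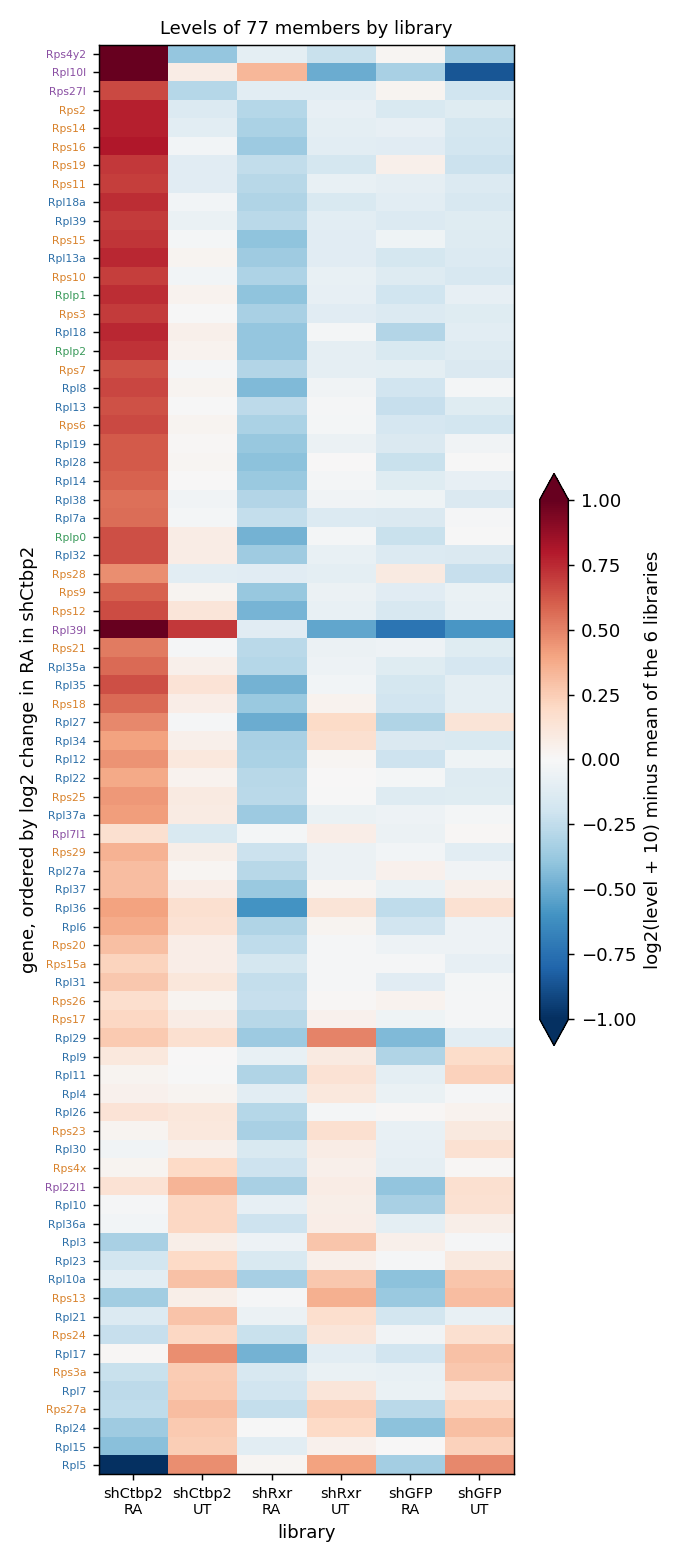
Level of 77 of the 79 members tested (rows, ordered by change in RA in shCtbp2) in the 6 libraries (columns), as log2(level + 10) minus the gene's mean, in colours that stop at -1 and 1. Row names are blue for large subunit, orange for small subunit, green for P stalk and purple for paralogs. Over all 79, the RA-treated shCtbp2 library is the highest for 56 genes (31.5% of all genes tested) and the RA-treated shRxr library the lowest for 56 (11.6%).

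Against shGFP, shCtbp2 cells with RA had higher levels of 72 of 79 members (41.2% of all genes were higher) and lower levels of 7 (58.8%), and the median log2 difference was 0.59, beside -0.19 for all genes tested. At least 1.5-fold higher were 40 members (13.3% of all genes) and lower 1, Rpl5 (33.0%). After the GC content correction described below 14 members were at least 1.5-fold higher, beside 12.8% of all genes. Untreated, 66 of 79 were higher (44.7% of all genes) and 13 lower (55.2%), but with a median of 0.10, beside -0.03 for all genes, and only Rpl10l and Rpl39l passed 1.5-fold (4.44% of all genes did), while 0 were 1.5-fold lower (7.38%). For shRxr the difference from shGFP was a median of -0.18 with RA, where 66 of 79 were lower (57.1% of all genes) and 13 higher (42.9%). Untreated it was 0.04, where 55 of 79 were higher (51.3%) and 24 lower (48.7%). At least 1.5-fold higher in shRxr with RA were 2 members, Rpl10l and Rpl39l (11.3% of all genes), and 0 were lower (9.87%), while untreated 1 was higher, Rpl29 (2.34%), and 0 lower (1.29%). The shRxr median with RA was 0.03 after the GC content and length correction, so its direction did not hold. The change in RA of shCtbp2 minus that of shGFP had a median of 0.47 and was above 0 in 68 of 79 members (43.5% of all genes) and below in 11 (56.5%). It was at least 1.5-fold higher in 35 (13.8%) and lower in 1 (29.3%). For shRxr minus shGFP the median was -0.23, below 0 in 65 of 79 (58.0%) and above in 14 (42.0%), with 0 members past 1.5-fold either way (13.7% of all genes each way). After the GC content correction the shCtbp2 median was 0.25, with 11 members at least 1.5-fold higher (11.7% of all genes). The shRxr median was then 0.0010, with 40 above 0 and 39 below, so its direction did not hold. Both differences use the same shGFP libraries and could not be tested with 1 library a group.

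Over both treatments, limma called 0 members raised and 0 lowered in shCtbp2 against shGFP (0.105% and 0.0405% of all genes were) and 0 and 0 in shRxr against shGFP (0.0% and 0.00811%). At an unadjusted p under 0.05 there were 2 members for shCtbp2 and 0 for shRxr, beside 1091 and 152 of the 12332 genes tested. Limma voom also called 0 members in both. The members' median was 0.35 for shCtbp2, beside -0.12 for all genes, and -0.07 for shRxr, beside -0.02. Without the untreated shCtbp2 library 13 members were called raised in shCtbp2 (1.97% of all genes were), and without either shRxr library or both 2 were, Rpl10l and Rpl39l (0.803% to 0.819% of all genes). After the paralogs, the highest differences of shCtbp2 from shGFP were 0.60 for Rpl18 (SE 0.34, adjusted p = 0.665) and 0.54 for Rpl13a (SE 0.34, adjusted p = 0.676), and the lowest were -0.35 for Rpl5, -0.21 for Rpl15 and -0.15 for Rpl3. For shRxr the highest after the paralogs were 0.34 for Rpl29 and 0.18 for Rpl21, and the lowest -0.34 for Rpl17 and -0.21 for Rps3a.

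The 4 members of largest SD over the libraries were the paralogs Rpl39l, Rpl10l and Rps4y2 and the large subunit gene Rpl5 (0.80, 0.75, 0.53 and 0.60 on the log2 scale). Rpl10l is an intronless copy of the X-linked Rpl10, known for its part in male meiosis, and lies at 67384368 to 67385388 on chromosome 12 (mm9). It stood at 793 and 342 normalised reads in shCtbp2 with RA and untreated, 409 and 226 in shRxr, and 257 and 175 in shGFP. In each line the RA value was the higher, by 2.32-fold in shCtbp2 (counting interval 2.06 to 2.62), 1.81-fold in shRxr (1.55 to 2.12) and 1.47-fold in shGFP (1.24 to 1.75). At both treatments shCtbp2 was highest, shRxr next and shGFP lowest. The limma change in RA was 0.85 (SE 0.27, adjusted p = 0.0504), short of the threshold, with adjusted p from 0.0248 to 0.494 over 19 alternatives, and the shCtbp2 difference was 1.26 (SE 0.33, adjusted p = 0.182). Rpl10 itself stood at 343 and 402 in shCtbp2, 326 and 362 in shRxr, and 275 and 386 in shGFP. Rpl10l thus made up 69.8% and 45.9% of the reads of the pair in shCtbp2 with RA and untreated, 55.6% and 38.4% in shRxr, and 48.2% and 31.2% in shGFP. Of the stretches of Rpl10, 92.1% are shared with other genes, against 7.60% for Rpl10l, so the level of Rpl10 is the less certain.

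Rpl39l, the paralog of the exit tunnel protein Rpl39 known for expression in male germ cells, lies at 10170319 to 10175004 on chromosome 16 (mm9). It stood at 182 and 123 normalised reads in shCtbp2 with RA and untreated, 65.3 and 46.9 in shRxr, and 39.0 and 44.3 in shGFP. Both shCtbp2 libraries lay above all others, and the difference from shGFP was 4.67-fold with RA (counting interval 3.41 to 6.48) and 2.78-fold untreated (2.03 to 3.86). The limma difference was 1.63 (SE 0.36, adjusted p = 0.103), and over 16 alternatives it ran from 1.13 to 1.94 with adjusted p from 0.00145 to 1. Rpl39 stood at 948 and 555 in shCtbp2, 479 and 540 in shRxr, and 528 and 532 in shGFP, with the RA-treated shCtbp2 library above the other 5. None of the stretches of Rpl39l occur in another annotated gene.

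Rps4y2, a copy of the X-linked Rps4x, lies at 148303178 to 148304120 on chromosome 6 (mm9). It stood at 5460 and 2046 normalised reads in shCtbp2 with RA and untreated, 2503 and 2294 in shRxr, and 2716 and 2092 in shGFP. As deposited, the RA-treated shCtbp2 library stood apart from the other 5, at 2.67-fold its untreated library (counting interval 2.54 to 2.80). The limma change in RA was 0.64 (SE 0.29, adjusted p = 0.158). After the GC content correction the log2 changes of Rps4y2 in RA were 0.43 in shCtbp2, 0.07 in shRxr and -0.05 in shGFP. It was then no longer higher with RA in each line, and its corrected limma change was 0.15 (SE 0.15, adjusted p = 0.496). GENCODE M21 lists this gene as a transcribed processed pseudogene, while the deposited table lists it as protein-coding. Rps4x stood at 17687 and 19916 in shCtbp2, 15024 and 18013 in shRxr, and 16347 and 17518 in shGFP. Rps27l, known in human cells as a p53 target, stood at 2513 and 1306 in shCtbp2, 1479 and 1481 in shRxr, and 1623 and 1387 in shGFP (limma change in RA 0.39, SE 0.27, adjusted p = 0.361). Rpl22l1, the paralog of Rpl22, was lower with RA in each line, at 472 and 542 in shCtbp2, 337 and 450 in shRxr, and 322 and 477 in shGFP. Rpl22 ran from 4344 to 6869, and its highest value was that of shCtbp2 with RA. Rpl7l1 stayed within 1585 to 1973 over all libraries and Rpl7 within 4727 to 6775. Rpl3l stayed within 5.02 to 16.8 and Rpl3 within 73.2 to 116.

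**Figure D4:**
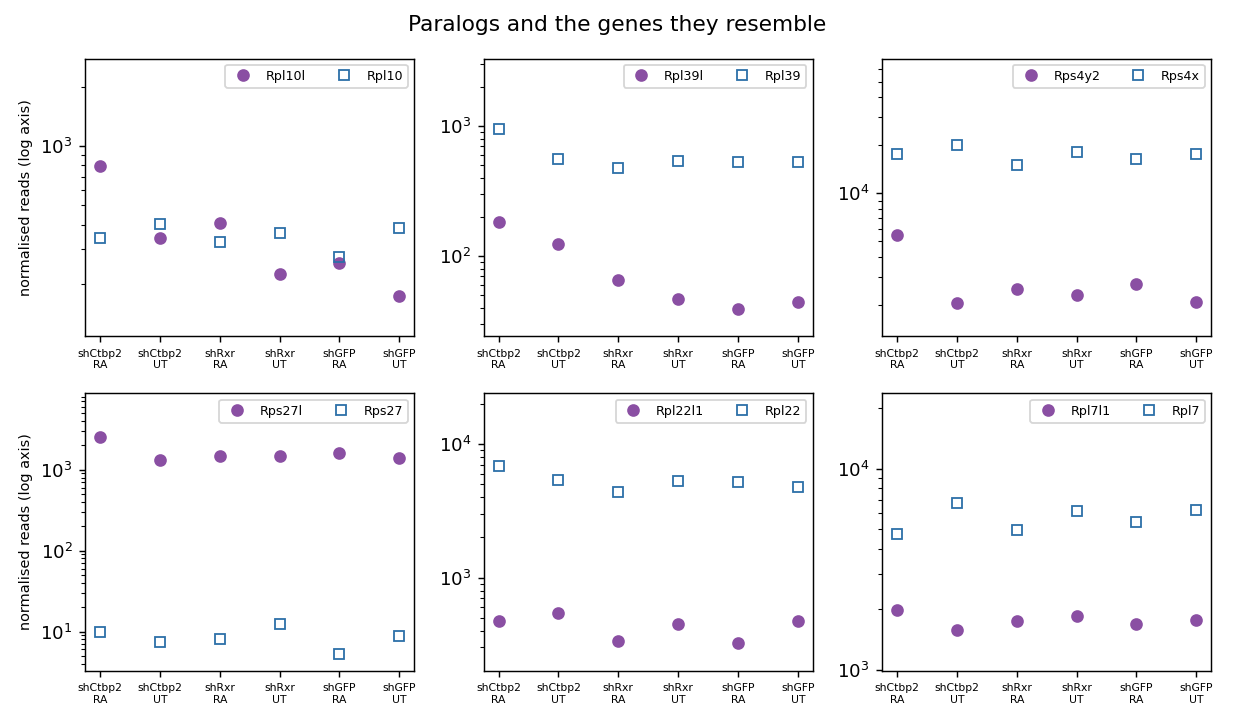
Levels in normalised reads (y axis, log scale) of 6 paralogs (filled circles) and the genes they resemble (open squares) in the 6 libraries (x axis). Rpl10l and Rpl39l are highest in the RA-treated shCtbp2 library at 793 and 182, and Rps27 stays under 13 beside 1306 to 2513 for Rps27l. The level of Rps27 is uncertain, since nearly all its stretches are shared with other genes.

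The RA-treated shCtbp2 library also differed from the others in how levels went with the GC content and the length of the transcript. Over 12133 genes, the deviation of that library from the gene's mean had a Spearman correlation with GC content of 0.66, against 0.25 for shGFP with RA and -0.45 to -0.40 for the other 4. With transcript length the correlation was -0.39 for shCtbp2 with RA and 0.33 for shRxr with RA. In the remaining libraries it was 0.05 to 0.20. The members' GC content ran from 40.6% to 60.8% with a median of 51.7%, close to the 51.0% of all genes tested. Members above the median GC content of those tested (51.8%) had a median log2 change in RA in shCtbp2 of 0.59, with 35 of 39 higher, and the others 0.15, with 25 of 40 higher. After each library was corrected for GC content and transcript length, the members' median in shCtbp2 was -0.02, beside -0.04 for all genes. Both were fitted together, so the parts of GC content and length in the correction cannot be told apart. Higher were 36 of 79 members (47.6% of all genes). The medians in shRxr and shGFP were then -0.30 and -0.29, beside -0.06 and -0.07 for all genes. Lower were 74 and 71 of 79 members (55.9% and 54.9% of all genes). The corrected difference between shCtbp2 and shGFP, both with RA, had a median of 0.32, against 0.59 as deposited, beside 0.03 for all genes, with 66 of 79 higher (52.4% of all genes). Of these, 14 were at least 1.5-fold higher, against 40 as deposited, and the paralogs Rpl10l and Rpl39l were at 1.44 and 2.12. The corrected limma fit called 1 member raised in RA, Rpl10l (0.65, adjusted p = 0.0248), and 9 lowered, among them Rpl5 and Rpl10a, beside 12.9% raised and 14.7% lowered of all genes. It called Rpl39l raised in shCtbp2 (1.68, adjusted p = 0.0470), a call lost when the correction used each gene's longest transcript (1.69, adjusted p = 0.0645). Whether GC content or transcript length has a part in the members' response was not tested beyond these values.

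**Figure D5:**
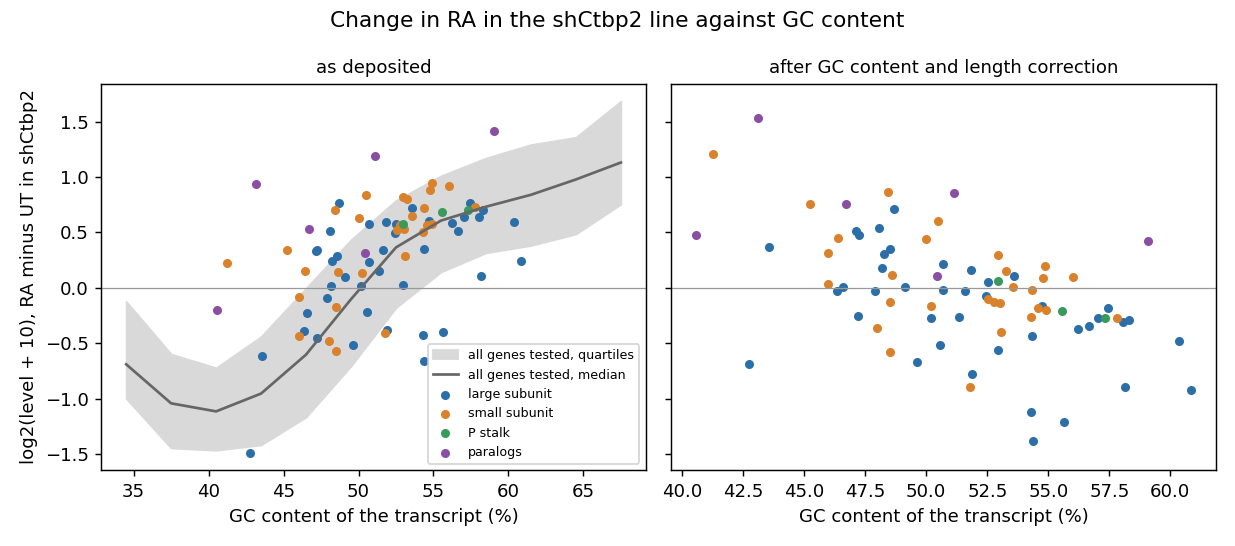
Log2(level + 10) with RA minus untreated in shCtbp2 (y axis) against the GC content of the transcript (x axis, %) for the 79 members by group, as deposited (left) and after correction for GC content and length (right). The line and band are the median and the 25th to 75th percentile of all genes tested in classes of 3 percentage points. Members above the median GC content have a median of 0.59 on the left and -0.20 on the right, and the others 0.15 on both sides.

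Genes that make and regulate ribosomes were read from the same RA fit, in which 10.8% of all genes were raised and 4.63% lowered, with a median of 0.07. That fit, like all values of the lists below, is without the GC content correction. Of 30 ribosome biogenesis genes, 0 were raised and 5 lowered by RA, with a median of -0.43: Gnl3 (-1.35, SE 0.32, adjusted p = 0.0119), Ncl, Wdr43, Nop58 and Nolc1. Ncl, the nucleolar protein nucleolin, stood at 4798 and 21723 normalised reads in shCtbp2 with RA and untreated, 16705 and 20722 in shRxr, and 9943 and 24062 in shGFP (-1.25, SE 0.33, adjusted p = 0.0214). Of 6 snoRNA host RNAs tested, 3 were lowered (Gas5, Snhg1 and Snhg5) and 0 raised, with a median of -0.83. Gas5, a noncoding RNA with a 5′ TOP tract, stood at 488 and 1163 in shCtbp2, 700 and 1049 in shRxr, and 507 and 1194 in shGFP (-1.01, SE 0.27, adjusted p = 0.0219). All 3 RA values of Ncl and Gas5 lay under their untreated values.

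Of 14 genes that control ribosomal protein mRNA, 3 were lowered and 0 raised: Mycn (-1.50, SE 0.26, adjusted p = 0.00227) and Myc (-1.25, SE 0.27, adjusted p = 0.00808), transcription factors that drive ribosome production, and the mRNA-binding protein gene Larp4 (-1.02, SE 0.31, adjusted p = 0.0440). Of 18 genes listed for a 5′ TOP tract, translation factors among them, 1 was lowered, Npm1 (-1.14, SE 0.29, adjusted p = 0.0190). Npm1 is no translation factor, and no translation factor of the list was called. Of 8 genes of the p53 response 1 was lowered, Mdm4 (-1.57, SE 0.35, adjusted p = 0.00942). None of 13 RNA polymerase I genes and none of 75 mitochondrial ribosomal protein genes was called in either direction. At an unadjusted p under 0.05 there were 4 and 5 of them, beside 3819 of the 12332 genes tested. The mitochondrial ribosomal protein genes had a median change in RA of 0.49 in shCtbp2, -0.14 in shRxr and -0.03 in shGFP. The 5 tested ribosomal protein genes that the naming rule leaves out (0 called, 0 at an unadjusted p under 0.05) had medians of 0.58, -0.21 and -0.15. Among them Gnb2l1, the small subunit protein RACK1, stood at 52021 and 34767 in shCtbp2 with RA and untreated, 23373 and 30552 in shRxr, and 27896 and 30861 in shGFP. These medians and levels are as deposited. For the members, the median in shCtbp2 was 0.35 as deposited and -0.02 after the GC content correction.

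The genes whose levels followed the summed level of the members most closely were Eif3k, Poldip2, Sbf1, the pseudogene Rpl9-ps7 and Eef2, with Pearson correlations of 0.997 to 0.999 over the 6 libraries among 10747 genes compared. The 6 points share their library depth and include the RA-treated shCtbp2 library at the high end, so these values are a description. Eif3k, a subunit of an initiation factor, stood at 4142 and 2796 normalised reads in shCtbp2 with RA and untreated, 2095 and 2603 in shRxr, and 2458 and 2609 in shGFP. Eef2, which moves the ribosome along the mRNA, stood at 113200 and 78538 in shCtbp2, 56850 and 71412 in shRxr, and 66359 and 72274 in shGFP.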

How the data were processed

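Total RNA libraries were made with an Illumina TruSeq RNA kit, per the labels' protocols. TopHat 1.4, HTSeq and mm9 are named as tools and genome build, per the submitters' processing notes. Strand setting, counting mode and annotation are not stated there. The authors deposited log2 values: whole reads were recovered for 100% of them within 0.001 of a read, and the values are log2 of reads per 10000000 counted in genes, plus 1. Gaps in depth (9955808 to 13322506 reads) set the counting error.

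Levels are unlogged values. Differences are on log2(level + 10), which understates changes of low genes. Of 23886 genes with a read, the 12332 whose mean was 20 or more entered the test. It was limma with a mean-variance trend (limma 3.58.1 in R 4.3.3), on line plus treatment, with 2 residual and 11.2 prior degrees of freedom, and Benjamini-Hochberg adjustment over all genes tested. Groups of 1 library were compared by size, at 1.5-fold. Intervals are exact Clopper-Pearson (95%) and cover counting error only. p-values measure only the spread between these libraries, which the labels do not call separate cultures.

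GC content and coding length came from the GENCODE M21 (GRCm38) transcript of longest coding sequence. An earlier version had used each gene's longest transcript and is kept as an added alternative. Rpl24 (annotated coding length 3150) and Rps4y2 (none) have no level per length. The 50-base stretches and the 50% limit were chosen after the data were seen. Members and lists were chosen with earlier results of these data known. Members named are the paralogs and the genes they resemble, the P stalk, the extremes of each limma contrast with a mean of at least 50, the largest and smallest SDs, the highest per length and those under the minimum. Rpl11 and Rps3 were added for their role, after their values were seen. The values of 2 single members are not reported here. Alternatives changed the pseudocount, minimum, scaling, test, GC content correction and libraries used. Tables came from Python 3.11.15 with pandas 2.3.3, numpy 2.4.6 and scipy 1.17.1, figures from matplotlib 3.10.9.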

Additional observations from a re-analysis of the deposited data

Results flagged for a closer look

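The summed level of the members with RA was 1.34 times that of untreated cells in shCtbp2, and under 1 in shRxr (0.833) and shGFP (0.968). The sums thus lay on opposite sides of 1. This difference between lines was not tested, since each group is 1 library. It did not hold under all settings: the ratio of medians over members was 1.045 in shGFP, and after the GC content correction the members' median log2 change was -0.02 in shCtbp2, -0.30 in shRxr and -0.29 in shGFP.

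The 125 rows named as pseudogenes of members, which the comparisons leave out, took 0.0373% and 0.0267% of reads in shCtbp2 with RA and untreated, 0.0203% and 0.0243% in shRxr, and 0.0214% and 0.0231% in shGFP. Their share in RA-treated shCtbp2 cells was above that of both shGFP libraries.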

How the results depend on the processing

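The labels carry no replicate numbers, so no pairing by replicate was possible. The line term of the model already sets RA beside untreated within each line. Over all alternatives, 593 values kept their direction and call, 27 single-gene values newly passed the threshold, 48 moved and 12 reversed; the cause was not tested. The number of members raised by RA (0) became 1 with scaling to genes other than members (11.2% of all genes) and with limma voom (10.7%). It also became 1 with the main and the longest-transcript GC content and length corrections (12.9% and 12.4% of all genes). The number lowered by RA (0) became 1 with equal upper quartiles or median-of-ratios scaling (7.83% and 8.43% of all genes). With the main correction it became 9, where 14.7% of all genes were lowered. With each gene's longest transcript, an alternative chosen after seeing the data, it became 8, where 14.1% of all genes were lowered. Members raised in shCtbp2 (0) became 1 with equal upper quartiles, median-of-ratios scaling and the GC content correction (0.349%, 0.341% and 0.363% of all genes). Leaving out a line or library gave 0 to 1 members lowered by RA and 0 to 13 raised in shCtbp2. Equal upper quartiles moved the all-gene median of shCtbp2 against shGFP to -0.0023, beside -0.12 as reported.

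With the GC content correction (longest transcript in brackets), the members' median log2 was -0.0243 (0.0102) for RA in shCtbp2, -0.287 (-0.301) for RA in shGFP, 0.325 (0.337) for shCtbp2 against shGFP with RA, 0.0334 (0.0158) for shRxr against shGFP with RA, and 0.245 (0.267) and 0.0010 (-0.00063) for the difference in RA response of shCtbp2 and shRxr from shGFP. For RA in shRxr it was -0.313 with the longest transcript, and for untreated shCtbp2 against shGFP 0.0676 with the main correction. Equal upper quartiles (median-of-ratios in brackets) gave -0.370 (-0.382) for RA in shRxr, -0.234 (-0.186) for RA in shGFP and 0.831 (0.730) for shCtbp2 against shGFP with RA. Equal upper quartiles gave 0.720 and -0.172 for the difference in RA response of shCtbp2 and shRxr, and median-of-ratios -0.1998 for shRxr against shGFP with RA. Members with under 50% shared stretches, also chosen after seeing the data, gave -0.226 for RA in shRxr, -0.0046 for RA in shGFP and -0.199 for shRxr against shGFP with RA.

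The ratio of summed levels for RA in shCtbp2 was 1.33 without paralogs. As the ratio of medians over members it was 1.64 in shCtbp2, 0.897 in shRxr and 1.045 in shGFP for RA, 1.64 with RA and 1.047 untreated for shCtbp2 against shGFP, and 0.866 and 1.009 for shRxr against shGFP. Leaving out libraries, the shCtbp2 difference from shGFP ran from -0.794 to 0.0882 for Rpl5, -0.442 to 0.0307 for Rpl15 and -0.218 to 0.0415 for Rps3a (each above 0 without shCtbp2_RA), and from -0.357 to 0.0557 for Rpl3 (above 0 without shGFP_RA). With equal upper quartiles it was 0.0208 for Rps3a. The shRxr difference ran from -0.506 to 0.133 for Rpl36 and -0.409 to 0.0457 for Rpl37a (above 0 without shRxr_RA), and from -0.0334 (without shRxr_UT) to 0.712 for Rpl29. With 1 library a group, depth sets counting error only, which weighs most on low members such as Rpl39l, Rpl5 and those not tested.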
